A study of Mus musculus with 27 samples.

Results

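The 9 genes described here, Pdgfra, Thy1, Ddr2, Fap, Tcf21, Vim, S100a4, Dpt and Pi16, are among those most often used to recognise a fibroblast, and they were taken by their symbols from 2 tables of raw read counts, one of mouse cardiac fibroblasts and one of whole mouse hearts. All 9 were present in both tables, among 22855 genes. Fibroblasts make and remodel the collagen-rich matrix between the muscle cells of the heart. No single gene is unique to them, so they are named from combinations of surface receptors, a transcription factor of the epicardial lineage, a cytoskeletal protein and secreted matrix proteins. Several of these genes are shared with other cells: Vim is present in most cells of mesenchymal origin, Thy1 also marks T cells and neurons, and S100a4 is also made by macrophages.

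The mice were C57Bl/6, and the labels give no transgene or treatment for any group, and hearts were taken at 5 ages: postnatal day 1 (labelled neonate), then 4 and 14 weeks, then 1 and 1.5 years (the last labelled 18-month old). At each age the RNA of whole hearts was sequenced in 3 samples, 15 in all. Cardiac fibroblasts were freed from the ventricles by enzymatic digestion and sorted by flow cytometry for surface PDGFRα, and their RNA was sequenced in 3 samples at postnatal day 1, 3 at 4 weeks, and 2 at each later age, 12 in all. The labels do not name animals. By the study's methods the samples of an age came from separate animals or sets of hearts. The study also states that the fibroblasts were taken from the hearts that were sequenced, by which the tissues would share donors. No label ties a fibroblast sample to a heart, and from 14 weeks on the fibroblasts are numbered 4 to 6 and the hearts 1 to 3. The joint fit treats the samples as independent. Because PDGFRα was the sort antigen, a fibroblast gene set seen through this sort holds only PDGFRα-positive cells, and the level of Pdgfra against whole heart is a check of the sort and not a finding. Digestion and sorting were applied to the fibroblasts and not to the hearts, so tissue and isolation cannot be told apart.

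Sequencing depth was 54615898 to 76758831 counted reads per fibroblast sample and 46091271 to 67984404 per heart sample. Levels are given as CPM, the count of a gene scaled to the total of its library, after TMM scaling within each tissue, which evens out differences in RNA composition. The cardiomyocyte marker sum (8 genes) was 15.2 to 759 CPM in fibroblasts, with the 3 day 1 samples at 696 to 759 CPM, against 36969 to 88455 CPM in hearts, where the day 1 samples were lowest (36969 to 43669.7 CPM). The endothelial sum (9 genes) was less separated, 356 to 2164 CPM in fibroblasts against 621 to 1409 CPM in hearts, and it was high in fibroblast replicate 3 at 4 weeks, in both samples at 14 weeks (1574 to 1863 CPM) and in replicate 5 at 1.5 years (1619 CPM, against 356 CPM in replicate 4). Genes of the early stress response (9 genes, among them Fos, Jun and Egr1) summed to 11324 to 39493 CPM in fibroblasts and to 132 to 520 CPM in hearts. Sex is not given in the labels, and among the samples of both tissues Xist stayed at or below 0.57 CPM at 14 weeks and 1 year while the Y-linked Ddx3y stayed at or below 0.397 CPM at 1.5 years, so sex and age cannot be told apart in comparisons of 1.5 years with 14 weeks. Both genes were counted at day 1 (Xist 124 to 334 CPM, Ddx3y 4.58 to 36.3 CPM) and at 4 weeks (6.48 to 589.6 and 1.64 to 50.8 CPM), so these levels also differed between 4 and 14 weeks and between day 1 and 1.5 years, and the part of sex in those comparisons was not tested. Mitochondrial genes took 1.74 to 9.18% of the counts in fibroblasts, with the day 1 samples (6.15 to 9.18%) and 1.5-year replicate 5 (7.83%) above the rest (at most 3.84%), and 10.8 to 34.5% in hearts.

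Of the 9 genes, 7 had a RefSeq promoter on build GRCm38.p6, of which the 250 bases before the RefSeq start were read. Against the gene spans of GENCODE M21, the windows of Pdgfra and S100a4 lie before the gene, those of Dpt and Tcf21 reach 19 and 31 bases into it, and those of Ddr2, Vim and Pi16 lie inside it, because the RefSeq start used here is downstream of the GENCODE one. Printed here, 5′ to 3′ on the strand of the gene and up to the GENCODE start, are those of Pdgfra, the sort antigen (chr5:75152001-75152250, plus strand), Tcf21, the transcription factor among the members (chr10:22820175-22820393, minus strand), and Dpt (chr1:164796413-164796643, plus strand), whose window held the most E-boxes of the 7. Capitals mark the E-box, CANNTG read on both strands (the motif is its own reverse complement), the element bound by basic helix-loop-helix factors, the class to which Tcf21 belongs.
Pdgfra: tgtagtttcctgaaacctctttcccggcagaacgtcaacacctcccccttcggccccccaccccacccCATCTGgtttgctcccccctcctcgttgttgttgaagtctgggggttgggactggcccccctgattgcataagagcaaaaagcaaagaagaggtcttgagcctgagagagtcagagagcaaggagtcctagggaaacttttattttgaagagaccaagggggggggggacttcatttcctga
Tcf21: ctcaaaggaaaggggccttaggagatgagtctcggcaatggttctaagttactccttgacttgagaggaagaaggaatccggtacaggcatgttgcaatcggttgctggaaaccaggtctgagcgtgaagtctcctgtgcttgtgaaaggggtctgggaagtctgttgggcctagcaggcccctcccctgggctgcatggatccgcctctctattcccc
Dpt: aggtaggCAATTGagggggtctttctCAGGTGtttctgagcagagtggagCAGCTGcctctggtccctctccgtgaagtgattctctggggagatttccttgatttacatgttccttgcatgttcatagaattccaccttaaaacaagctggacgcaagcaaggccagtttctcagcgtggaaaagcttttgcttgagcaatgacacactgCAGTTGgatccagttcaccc
The whole Dpt window of 250 bases held 6 E-boxes, 4 of them in the printed run, and 0.274% of the 32817 promoters in the same table held as many or more. The Pdgfra window held 1 E-box, and the windows of Pi16, Ddr2, Tcf21, Vim and S100a4 held 0, while 66.2% of all promoters held at least 1. The element TATAAA was found once each in the Ddr2, Vim and S100a4 windows (12.4% of all promoters, either strand), and CCAAT was found 2 times in Vim and once in Pi16 (33.8% of all promoters, either strand). These matches describe letters in a window and were not tested for binding.

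Across the 5 ages, 8 of the 9 genes changed in cardiac fibroblasts (edgeR's quasi-likelihood test with Benjamini-Hochberg adjustment over all genes, adjusted p under 0.05), against a background of 19.9% of the 18759 genes tested. The step from day 1 to 4 weeks carried most of it: 7 of 9 passed, against 15.5% of all genes, with 6 higher (background 9.28%) and 1 lower (background 6.2%). From 4 to 14 weeks 1 of 9 passed (Thy1, lower; background 3.87%), and from 14 weeks to 1 year 1 of 9 passed (Pi16, higher; background 1.78%). Between 14 weeks and 1.5 years 0 of 9 passed (background 2.72%), with 3 at an unadjusted p under 0.05 and 2 by DESeq2. Set against day 1, the 1.5-year fibroblasts had 6 of 9 genes changed (background 16.3%), 5 higher (background 9.86%) and 1 lower (background 6.46%). The 14-week, 1-year and 1.5-year comparisons share their 14-week samples, and the comparisons with day 1 share the day 1 samples. The 9 genes were chosen with earlier results of these data known, so their counts beside the background are descriptions. The median log2 change of the 8 genes other than S100a4 was 0.80 from day 1 to 4 weeks, where the median of all genes was 0.00, and lay between -0.16 and 0.26 in the later steps from 4 to 14 weeks, 14 weeks to 1 year and 14 weeks to 1.5 years.

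**Figure D1:**
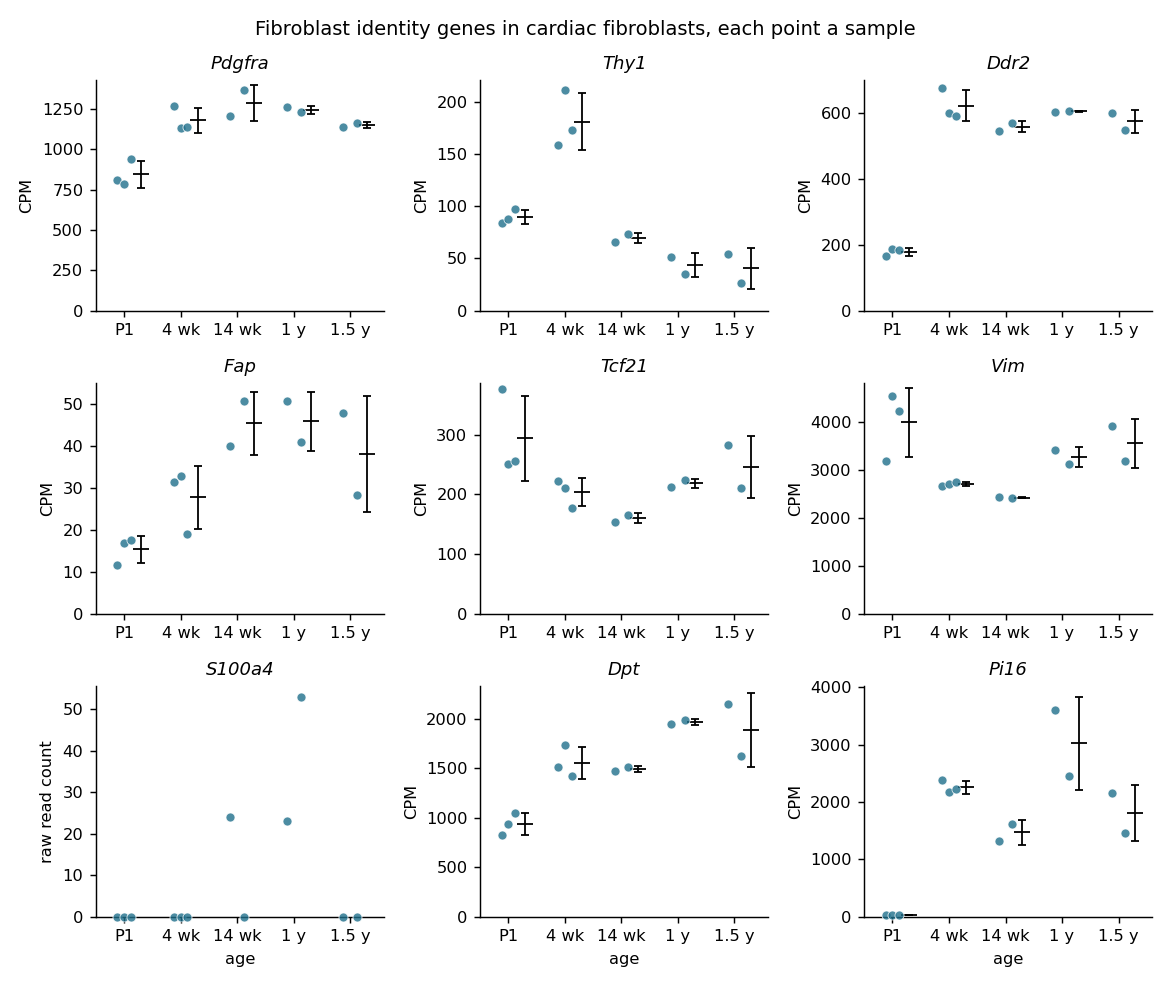
Level of each gene in the 12 cardiac fibroblast samples by age, in CPM on an axis from 0 (S100a4 as raw read counts), with 1 point per sample and the mean ± SD of each group beside its points (P1, postnatal day 1). Pi16 lies at 29.5 to 30.2 CPM at day 1 and at or above 1322 CPM at every later age, Thy1 peaks at 4 weeks, and Tcf21 and Vim are lowest at 14 weeks.

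Pdgfra encodes the PDGF receptor alpha, a tyrosine kinase receptor for platelet-derived growth factors and the antigen of the sort (chr5:75152292-75198215 on GRCm38, plus strand). In fibroblasts its level was 811, 784, and 939 CPM at day 1, 1270.3, 1129.9, and 1139.5 CPM at 4 weeks, 1209 and 1367 CPM at 14 weeks, 1264 and 1229 CPM at 1 year, and 1139 and 1164 CPM at 1.5 years, in replicate order. All 3 day 1 samples lay below every later sample, and each later age overlapped the next in the order of their means. The rise from day 1 to 4 weeks was 0.48 (SE 0.11) on the log2 scale, 1.40-fold (adjusted p = 0.0112), and the difference between 1.5 years and day 1 was 0.45 (SE 0.13, adjusted p = 0.0276). Scaled by library size alone, the second difference was 0.23 (adjusted p = 0.229), and with only the 2 ages fitted it was 0.45 (edgeR adjusted p = 0.09). The call was also lost without day 1 replicate 1 or 2 (edgeR adjusted p = 0.0596 and 0.081). It was lost as well without 1.5-year replicate 4 or 5 (0.46 and 0.43), which leaves 1 sample at that age. In hearts Pdgfra was 42.7, 30.6, and 30.00 CPM at day 1, 49.3, 35.8, and 62.02 CPM at 4 weeks, 46.6, 31.4, and 40.6 CPM at 14 weeks, 34.9, 32.4, and 30.02 CPM at 1 year, and 39.8, 34.4, and 28.6 CPM at 1.5 years. Neighbouring ages overlapped throughout, and no change with age passed the test in hearts (adjusted p over the 5 ages = 0.165). The heart value from day 1 to 4 weeks was 0.51 (adjusted p = 0.127), and without 4-week replicate 2 it was 0.69 (adjusted p = 0.0433).

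Ddr2 encodes discoidin domain receptor 2, a receptor tyrosine kinase that binds fibrillar collagen (chr1:169972307-170110762, minus strand). Its fibroblast level was 165, 186, and 184 CPM at day 1 and 675, 600.4, and 591 CPM at 4 weeks. It was 546 and 569.9 CPM at 14 weeks, 604 and 606 CPM at 1 year, and 599 and 549 CPM at 1.5 years. The group means after day 1 stayed between 558 and 622 CPM, and every one of those 9 samples lay above every day 1 sample. Ddr2 rose 3.49-fold from day 1 to 4 weeks, 1.80 (SE 0.11) on the log2 scale with an adjusted p of 3.70e-07, and was 3.22-fold higher at 1.5 years than at day 1 (adjusted p = 8.34e-07). In hearts the levels were 10.3, 19.5, and 17.1 CPM at day 1 and 42.8, 16.7, and 47.9 CPM at 4 weeks. They were 34.03, 27.1, and 29.9 CPM at 14 weeks, 35.5, 26.5, and 31.99 CPM at 1 year, and 35.5, 20.4, and 23.7 CPM at 1.5 years. The second 4-week heart lay within the day 1 range and the other 2 lay above it. The heart change from day 1 to 4 weeks was 1.20 (SE 0.33, adjusted p = 0.0184). That call was lost with scaling by library size alone (0.68, edgeR adjusted p = 0.153) and with only the 2 ages fitted (1.17, edgeR adjusted p = 0.0716). It was also lost without day 1 replicate 1, 4-week replicate 1 or 4-week replicate 3 (0.93 to 1.05 on the log2 scale). The edgeR test over all 5 ages in hearts gave an adjusted p of 0.074.

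Thy1 encodes CD90, a small glycoprotein anchored to the outer cell membrane and another antigen by which cardiac fibroblasts are sorted (chr9:44043384-44048579, plus strand). In fibroblasts it was 84.00, 87.8, and 97.5 CPM at day 1, 159, 212, and 173 CPM at 4 weeks, 66.2 and 73.3 CPM at 14 weeks, 51.6 and 35.3 CPM at 1 year, and 54.3 and 26.8 CPM at 1.5 years. The 4-week samples were the highest, day 1 came next, 14 weeks next, none of these overlapping, and 1 year and 1.5 years overlapped at the bottom. Thy1 was the only member for which both the step up and the step down passed: it rose by 1.01 (SE 0.23, adjusted p = 0.00918) on the log2 scale from day 1 to 4 weeks, fell to 14 weeks (log2 change -1.38, SE 0.27, adjusted p = 0.0144), and was lower at 1.5 years than at day 1 (log2 change -1.15, SE 0.26, adjusted p = 0.00952). With only day 1 and 1.5 years fitted, the difference between them was -1.14 and lost its call (edgeR adjusted p = 0.0536). From 14 weeks to 1.5 years the change was -0.78 (edgeR adjusted p = 0.205). The fall from 4 to 14 weeks was lost without 14-week replicate 4 (-1.31, adjusted p = 0.16) or replicate 6 (-1.45, adjusted p = 0.115), which leaves 1 sample at that age. Without 1.5-year replicate 4 the change from 14 weeks was -1.38 (adjusted p = 0.0343), and without replicate 5 the difference from day 1 was -0.73 (adjusted p = 0.0937). The leukocyte marker sum (9 genes) was also highest at 4 weeks, at 82.6 to 161 CPM at day 1, 198 to 359 CPM at 4 weeks, 35.1 to 46.95 CPM at 14 weeks, 17.4 to 19.7 CPM at 1 year, and 69.8 to 79.4 CPM at 1.5 years. Cd3e, a gene of the T-cell receptor complex, had 0 counts in all 6 fibroblast samples of day 1 and 4 weeks, and 0 to 44 counts in the 4-week hearts. The part of T cells and other leukocytes in the fibroblast values of Thy1 was not tested.

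Thy1 in hearts was 10.9, 9.66, and 11.99 CPM at day 1, 21.1, 24.04, and 30.8 CPM at 4 weeks, 12.6, 12.4, and 11.1 CPM at 14 weeks, 16.1, 12.1, and 12.8 CPM at 1 year, and 21.00, 20.2, and 17.5 CPM at 1.5 years. Hearts were also highest at 4 weeks, and at 1.5 years all 3 samples lay above all 14-week and 1-year samples. The rise from day 1 to 4 weeks was 1.22 (SE 0.21, adjusted p = 0.000558), the fall from 4 to 14 weeks was -1.08 (SE 0.21, adjusted p = 0.0163), and the rise from 14 weeks to 1.5 years was 0.70 (SE 0.21, adjusted p = 0.0365). The fall was lost without 4-week replicate 3 or any 14-week replicate (-1.11 to -0.91). The late rise was lost without any single sample of either age (0.65 to 0.78, edgeR adjusted p = 0.0502 to 0.143). That rise was also lost with a length offset (0.56, edgeR adjusted p = 0.118) and with only the 2 ages fitted (0.75, edgeR adjusted p = 0.0547). Thy1 was also higher at 1.5 years than at day 1 in hearts (log2 change 0.85, SE 0.21, adjusted p = 0.00529), a call lost with scaling by library size alone (0.26, adjusted p = 0.391). From 14 weeks to 1 year the log2 change of Thy1 in hearts was 0.19 (adjusted p = 0.806). The heart leukocyte sum was 39.5 to 43.4 CPM at day 1, 236 to 292 CPM at 4 weeks, 197 to 225 CPM at 14 weeks, 292 to 392 CPM at 1 year, and 327 to 433 CPM at 1.5 years. The leukocyte sum's part in the heart values of Thy1 was not tested.

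Fap encodes fibroblast activation protein, a membrane serine protease that cleaves after proline and is known from healing wounds and tumour stroma (chr2:62500943-62574075, minus strand). Per kilobase of exon it had the lowest mean level of the 8 well-detected members at each age in both tissues. Fibroblast levels were 11.6, 16.9, and 17.5 CPM at day 1, 31.4, 32.9, and 19.1 CPM at 4 weeks, 40.1 and 50.8 CPM at 14 weeks, 50.9 and 40.96 CPM at 1 year, and 48.01 and 28.3 CPM at 1.5 years. Day 1 lay below all other ages, and each later age overlapped the next in the order of their means. Fap was higher at 4 weeks than at day 1 (log2 change 0.86, SE 0.27, adjusted p = 0.0486) and higher at 1.5 years than at day 1 (log2 change 1.31, SE 0.29, adjusted p = 0.0079), and its value from 4 to 14 weeks was 0.71 (adjusted p = 0.265). The first of these was close to the threshold: it was lost with median-of-ratios size factors, library size alone, a length offset and a fit of the 2 ages only, and when any of 9 of the 12 samples was left out (0.69 to 0.96 on the log2 scale). The replicate lowest for Fap at 4 weeks, replicate 3, had the endothelial sum of 2164 CPM. The second was lost without 1.5-year replicate 4 (0.88, adjusted p = 0.129). In hearts Fap was 2.66, 1.25, and 2.61 CPM at day 1, 3.86, 1.83, and 10.02 CPM at 4 weeks, 4.11, 2.95, and 2.76 CPM at 14 weeks, 4.84, 2.90, and 3.49 CPM at 1 year, and 5.70, 5.18, and 2.52 CPM at 1.5 years. Only the third 4-week heart stood out, and no comparison in hearts passed the test: from day 1 to 4 weeks the value was 1.27 (adjusted p = 0.164), and over the 5 ages the adjusted p was 0.448.

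Tcf21 encodes a basic helix-loop-helix factor of the epicardium that is needed for cardiac fibroblasts to form (chr10:22817281-22820174, minus strand). In fibroblasts it was 376, 250.3, and 256 CPM at day 1, 223, 210.3, and 177 CPM at 4 weeks, 155 and 166 CPM at 14 weeks, 213 and 224 CPM at 1 year, and 283 and 210.0 CPM at 1.5 years. The course was a shallow trough, highest on average at day 1 and lowest at 14 weeks, with the 14-week samples below all others and the remaining ages overlapping their neighbours in that order. Both 14-week samples had high endothelial sums (1574 to 1863 CPM), and the part of other cells in this low was not tested. The 5 ages differed (edgeR adjusted p = 0.0401), but none of the single comparisons that were run passed, and 14 weeks was not compared with day 1. The value was -0.53 (SE 0.17, adjusted p = 0.0556) from day 1 to 4 weeks, 0.62 (adjusted p = 0.172) from 14 weeks to 1.5 years, and -0.25 (adjusted p = 0.423) from day 1 to 1.5 years. The first of these passed in 8 alternative settings, DESeq2 among them (-0.55, adjusted p = 0.0102), and the second passed by DESeq2 (0.63, adjusted p = 0.0484). Tcf21 also fell in hearts. Levels were 33.4, 23.1, and 28.4 CPM at day 1, 10.7, 10.6, and 10.5 CPM at 4 weeks, 8.78, 4.94, and 9.22 CPM at 14 weeks, 17.6, 7.84, and 8.60 CPM at 1 year, and 13.7, 21.4, and 12.6 CPM at 1.5 years. Every day 1 heart lay above every later heart, and Tcf21 fell 2.68-fold to 4 weeks (log2 change -1.42, SE 0.33, adjusted p = 0.00579). From 14 weeks to 1.5 years it rose by 1.06 (SE 0.33, adjusted p = 0.0449), a call lost with a length offset, with the 2 ages alone and without any of 8 of the 15 hearts (0.78 to 1.21).

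Vim encodes vimentin, the intermediate filament protein of mesenchymal cells (chr2:13573927-13582826, plus strand). Its fibroblast level was 3189, 4548, and 4239.7 CPM at day 1, 2664, 2699, and 2751 CPM at 4 weeks, 2431 and 2410.2 CPM at 14 weeks, 3417 and 3117 CPM at 1 year, and 3919.8 and 3189 CPM at 1.5 years. Vim was the only member that passed as lower at 4 weeks than at day 1, with a log2 change of -0.56 (SE 0.14, adjusted p = 0.0165) and with all 4-week samples below all day 1 samples. That call was lost without day 1 replicate 2 or 3 or 4-week replicate 1 or 2 (-0.56 to -0.46, adjusted p = 0.0513 to 0.0586). Between day 1 and 1.5 years the value was -0.17 (adjusted p = 0.544), and between 14 weeks and 1.5 years 0.55 (adjusted p = 0.133), where both old samples lay above both 14-week samples and DESeq2 gave an adjusted p of 0.0121. In hearts, too, Vim was highest at day 1 and lowest at 14 weeks. It was 1034, 857, and 898 CPM at day 1, 346, 461, and 501 CPM at 4 weeks, 252, 209, and 198 CPM at 14 weeks, 426, 365, and 371 CPM at 1 year, and 366, 436, and 459 CPM at 1.5 years. It fell 2.13-fold from day 1 to 4 weeks (log2 change -1.09, SE 0.16, adjusted p = 0.000106) and again to 14 weeks (log2 change -0.99, SE 0.16, adjusted p = 0.00369), then was higher at 1 year (log2 change 0.82, SE 0.16, adjusted p = 0.0273) and at 1.5 years (log2 change 0.94, SE 0.16, adjusted p = 0.0017) than at 14 weeks. All hearts of 1 year and 1.5 years lay above all 14-week hearts and below all day 1 hearts. The 1-year call was lost without any one sample of the 2 ages (0.74 to 0.93), and the other heart calls, among them that between day 1 and 1.5 years (log2 change -1.14, SE 0.16, adjusted p = 4.06e-05), held in every alternative.

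Dpt encodes dermatopontin, a small secreted matrix protein that binds decorin and collagen (chr1:164796644-164824266, plus strand). Fibroblasts had 823, 936, and 1047 CPM at day 1, 1511, 1739, and 1420.2 CPM at 4 weeks, 1472 and 1513 CPM at 14 weeks, 1948 and 1989 CPM at 1 year, and 2152 and 1622 CPM at 1.5 years. The lowest later sample, 1420.2 CPM, lay above the highest day 1 sample, 1047 CPM. Dpt rose 1.66-fold from day 1 to 4 weeks (log2 change 0.73, SE 0.14, adjusted p = 0.00291) and was 2.02-fold above day 1 at 1.5 years (log2 change 1.01, SE 0.15, adjusted p = 0.00048), and both calls held in every alternative. In hearts the first step did not pass and the last did. Heart levels were 70.1, 73.03, and 101 CPM at day 1, 88.7, 106, and 133 CPM at 4 weeks, 104, 81.9, and 79.3 CPM at 14 weeks, 149, 159.9, and 87.4 CPM at 1 year, and 136, 148, and 188 CPM at 1.5 years. From day 1 to 4 weeks the value was 0.42 (adjusted p = 0.222), with a sign that turned with library size alone (-0.07). All 3 hearts of 1.5 years lay above all 14-week and all day 1 hearts, a difference of 0.83 (SE 0.23, adjusted p = 0.0248) from 14 weeks. The difference from day 1 was 0.95 (SE 0.23, adjusted p = 0.00449). With a length offset these were 0.38 (adjusted p = 0.263) and 0.37 (adjusted p = 0.169). Library size alone took the second to 0.35 (adjusted p = 0.236), and the first was lost without 14-week replicate 2, 14-week replicate 3 or 1.5-year replicate 3 (0.68 to 0.78).

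Pi16 encodes peptidase inhibitor 16, a secreted cysteine-rich protein of the CAP family that marks adventitial fibroblasts in many organs (chr17:29317680-29330593, plus strand). It showed the largest change of the 9 genes. Fibroblasts had 29.5, 29.8, and 30.2 CPM at day 1 and 2378, 2169.8, and 2221 CPM at 4 weeks, 75.6-fold more, with an adjusted p of 6.38e-09 and a log2 change of 6.24 (SE 0.21). The 3 day 1 samples lay within 1 CPM of each other, and every later sample lay at or above 1322 CPM. Later levels were 1322 and 1627 CPM at 14 weeks, 3599.6 and 2454 CPM at 1 year, and 2158 and 1466 CPM at 1.5 years. The 14-week samples lay below the 4-week samples (log2 change -0.61, adjusted p = 0.115, and by DESeq2 -0.62 with an adjusted p of 0.00937), and the 1-year samples lay above the 14-week samples (log2 change 1.04, SE 0.21, adjusted p = 0.0274). The 1-year call rested on few samples: without 14-week replicate 4 it was 0.89 (adjusted p = 0.323), without 14-week replicate 6 it was 1.19 (adjusted p = 0.115), without 1-year replicate 4 it was 0.73 (adjusted p = 0.318), and with library size alone it was 0.85 (adjusted p = 0.055). Between 14 weeks and 1.5 years the value was 0.30 (adjusted p = 0.549), and it was -0.01 without 1.5-year replicate 4.

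In hearts Pi16 was 8.48, 6.25, and 10.4 CPM at day 1, 96.6, 146, and 169 CPM at 4 weeks, 85.1, 81.01, and 91.1 CPM at 14 weeks, 105, 90.5, and 79.95 CPM at 1 year, and 138, 142, and 167 CPM at 1.5 years. The step after day 1 was the largest of the 9 genes in hearts as well, 16.4-fold (log2 change 4.04, SE 0.23, adjusted p = 7.05e-09), and every later heart lay above every day 1 heart. The 3 hearts of 1.5 years lay above the 14-week hearts (log2 change 0.80, SE 0.21, adjusted p = 0.0177), a call lost without any 14-week replicate or without 1.5-year replicate 3 (0.71 to 0.84, adjusted p = 0.0521 to 0.0699). From 4 to 14 weeks the value was -0.68 (adjusted p = 0.122), and it passed with DESeq2, with library size alone and without 4-week replicate 1.

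S100a4, the calcium-binding protein also called fibroblast-specific protein 1, was barely counted in these tables (chr3:90603771-90606045, plus strand). Fibroblasts had 0 counts in 9 of 12 samples, and 24 counts in 14-week replicate 4, 23 in 1-year replicate 4 and 53 in 1-year replicate 5. Hearts had 0 counts in 10 of 15 samples, and the others held 1 to 39 counts. In GENCODE M21, 302 of the exonic bases of S100a4 (51.7%) are shared with the annotated gene Gm42674 on the same strand, and reads over 2 genes are left out of counts of this kind. No row of the 22855 genes used here has the name Gm42674, while Gm42802 and Gm42803, which overlap Pdgfra, have rows, the annotation is not given in the sources used here, and the part of the overlap in the low counts was not tested. The values of S100a4 are therefore uncertain, and no fold change is given. Members overlapped by antisense genes were Pdgfra (456 exonic bases, Gm42802), Ddr2 (90 bases) and Pi16 (222 bases), and the strand setting of the counts is not given, so reads of either strand cannot be told apart there.

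In fibroblasts Pdgfra, Ddr2, Dpt and Fap were lowest at day 1, passed the step to 4 weeks and passed no later step. The call of Fap at that first step was close to the threshold and was lost in many alternatives. The mean of Pdgfra was 845 ± 82.99 CPM (SD, n = 3) at day 1 and 1179.9 ± 78.4 CPM (SD, n = 3) at 4 weeks, that of Ddr2 178 ± 11.7 CPM (SD, n = 3) and 622 ± 45.9 CPM (SD, n = 3), that of Dpt 935 ± 112 CPM (SD, n = 3) and 1557 ± 164 CPM (SD, n = 3), and that of Fap 15.4 ± 3.26 CPM (SD, n = 3) and 27.8 ± 7.54 CPM (SD, n = 3). At 1.5 years, replicate 5, the sample with the endothelial sum of 1619 CPM, was lower than replicate 4 for Thy1, Ddr2, Fap, Tcf21, Vim, Dpt and Pi16 and higher for Pdgfra. The part of other cells in those 2 samples was not tested.

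In whole hearts 5 of the 9 genes changed over the 5 ages (Thy1, Tcf21, Vim, Dpt and Pi16), against 34.3% of the 17995 genes tested. From day 1 to 4 weeks 5 of 9 passed (background 18.2%), 3 higher (Thy1, Ddr2 and Pi16; background 12.1%) and 2 lower (Tcf21 and Vim; background 6.1%). From 4 to 14 weeks 2 of 9 passed, Thy1 and Vim, both lower (background 1.61%), and from 14 weeks to 1 year 1 of 9 passed, Vim (background 0.972%). Between 14 weeks and 1.5 years 5 of 9 passed (background 12.8%), all higher (background 4.91%): Thy1, Tcf21, Vim, Dpt and Pi16. In this comparison sex and age cannot be told apart. The mitochondrial share of the counts was 27.7 to 34.5% in the 14-week hearts and 18.5 to 26.5% in those of 1.5 years, and its part was not tested. Between day 1 and 1.5 years 4 of 9 passed (background 31.8%), 3 higher (Thy1, Dpt and Pi16; background 15.6%) and 1 lower (Vim; background 16.3%). The median log2 change of the 8 genes between 14 weeks and 1.5 years was 0.75 in hearts, against -0.02 for all genes. In a whole heart, fewer cells of a type and less RNA per cell cannot be told apart. The cardiomyocyte sum was 36969 to 43669.7 CPM at day 1 and 64809 to 77126 CPM at 4 weeks, and its part in the falls of Tcf21 and Vim was not tested. Scaling by library size alone would lower the log2 changes of the median gene in hearts by 0.51 from day 1 to 4 weeks and by 0.60 from day 1 to 1.5 years.

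**Figure D2:**
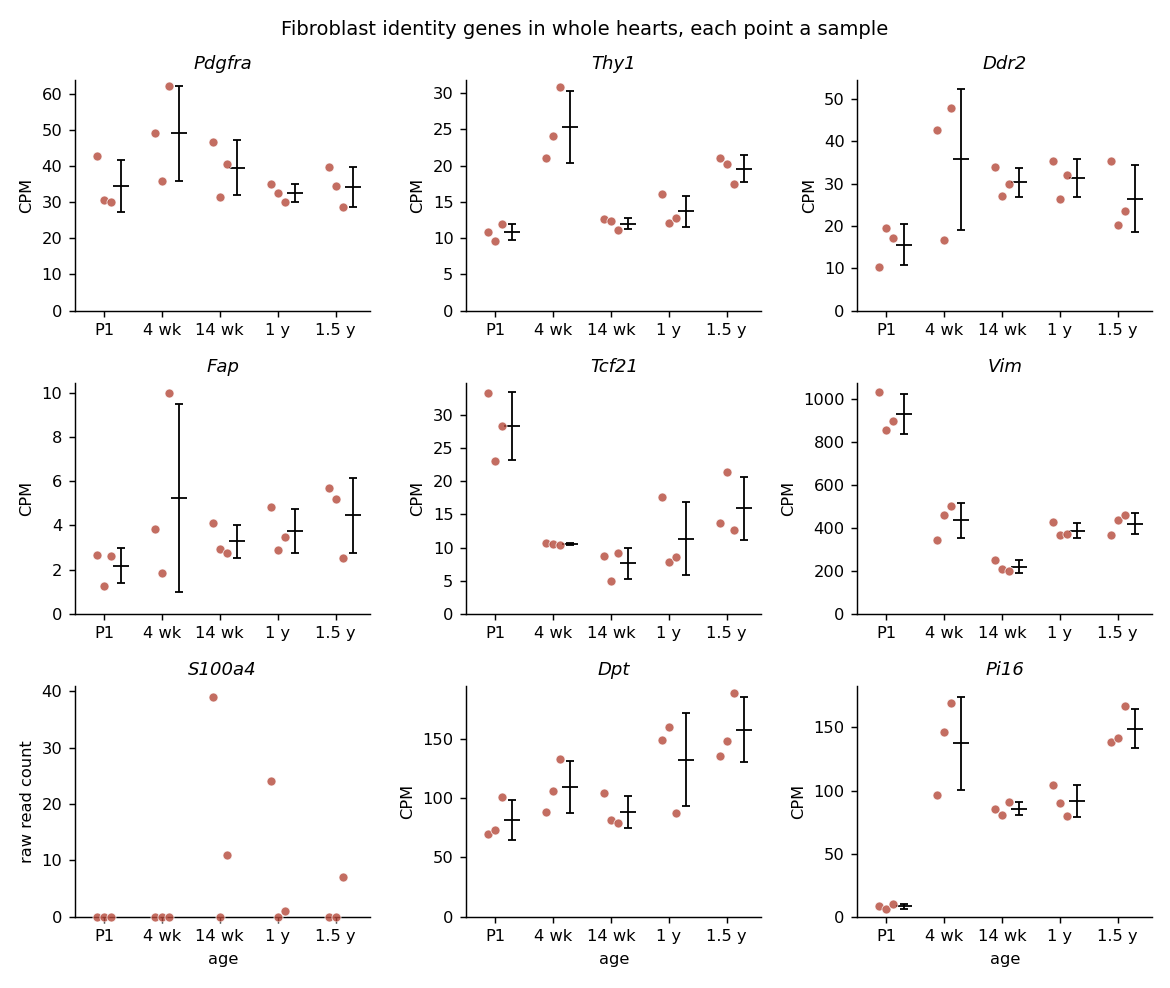
Level of each gene in the 15 whole heart samples by age, in CPM on an axis from 0 (S100a4 as raw read counts), with 1 point per sample and the mean ± SD of each group beside its points (P1, postnatal day 1). Pi16 rises from at most 10.4 CPM at day 1 to at least 79.95 CPM at all later ages, while Vim and Tcf21 are highest at day 1 and lowest at 14 weeks.

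Set side by side with whole hearts on 1 common scale, sorted fibroblasts held more RNA of 8 of the 9 genes at each of the 5 ages. Pdgfra, the sort antigen, is 1 of these 8, and its place in the count is a check of the sort. The share of all 20650 genes that were higher in fibroblasts was 13.6% at day 1, 17.5% at 4 weeks, 17.1% at 14 weeks, 16.7% at 1 year, 21% at 1.5 years, and 27.7% over the mean of the ages, and the shares that differed in either direction were 32.3%, 36.1%, 34.8%, 32.4%, 38.9% and 56.8%. Pdgfra, the check on the sort, was higher in every fibroblast sample than in every heart, and it was 19.3-fold higher in fibroblasts at day 1, 18.9-fold at 4 weeks, 25.5-fold at 14 weeks, 31.1-fold at 1 year, and 25.96-fold at 1.5 years. Averaged over the ages, the ratio was 13.6-fold for Ddr2, 13.03-fold for Tcf21, 10.8-fold for Dpt, 10.4-fold for Pi16, 6.98-fold for Fap, 5.76-fold for Vim, and 3.69-fold for Thy1. On that average Pdgfra, Ddr2 and Tcf21 had the highest ratios and Vim and Thy1, genes shared with many other cells, the lowest, while at day 1 the lowest was that of Pi16 (2.81-fold). The median log2 ratio of the 8 genes, Pdgfra among them, was 3.41, against -0.01 over all genes. Library size alone would move the ratio of the median gene by -0.07 at day 1 to 0.67 at 14 weeks. Genes of a larger ratio than Pdgfra numbered 514, and genes of a larger ratio than Thy1 numbered 3375, of the 20650.

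**Figure D3:**
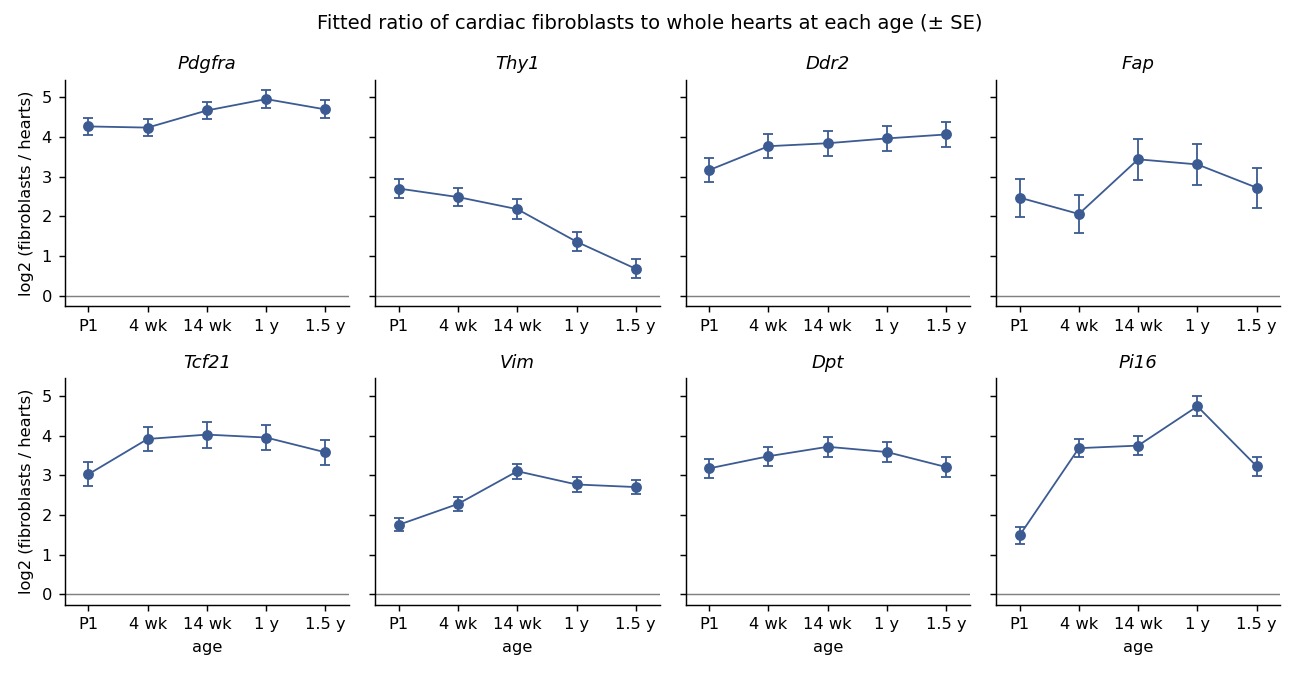
Ratio of cardiac fibroblasts to whole hearts for the 8 well-detected genes at each age, as the fitted log2 ratio with SE bars (P1, postnatal day 1). Pdgfra stays above 4 at all ages, Pi16 climbs from 1.49 at day 1 to 4.74 at 1 year, and Thy1 declines from 2.70 at day 1 to 0.68 at 1.5 years.

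The ratios of the single ages follow, on the log2 scale. That of Ddr2 was 3.17, 3.77, 3.85, 3.97 and 4.07 from the youngest age to the oldest. For Dpt it was 3.18, 3.48, 3.72, 3.59 and 3.21, and for Tcf21 3.03, 3.92, 4.03, 3.96 and 3.58. Fap, with few reads in hearts, had 2.48, 2.06, 3.44, 3.31 and 2.73. These 4 genes and Pdgfra passed no test of a different age course in the 2 tissues. For Vim the log2 ratio was 1.76, 2.28, 3.11, 2.77 and 2.71, for Thy1 2.70, 2.49, 2.18, 1.36 and 0.68, and for Pi16 1.49, 3.69, 3.75, 4.74 and 3.23. The Thy1 ratio at 1.5 years was the weakest of all, at 1.60-fold (adjusted p = 0.0277), with overlapping samples. Its call was lost without fibroblast replicate 4 of that age (log2 ratio 0.07), which leaves 1 fibroblast sample, and without heart replicate 3 (0.65, edgeR adjusted p = 0.0565). The ratio did not pass by DESeq2 (0.56, adjusted p = 0.0514) or with median-of-ratios size factors (0.56, edgeR adjusted p = 0.0646). With only the 2 groups compared it was 0.65 (edgeR adjusted p = 0.203).

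The age course differed between fibroblasts and hearts for 3 of the 9 genes, Thy1, Vim and Pi16 (edgeR interaction over the 5 ages, adjusted p = 0.000619, 0.00284 and 3.42e-06), against a background of 14.8%. From day 1 to 4 weeks 1 of 9 passed (background 7.14%): Pi16 rose by 2.20 (SE 0.30) more on the log2 scale in fibroblasts than in hearts (adjusted p = 4.15e-05). The values for the 2 genes that fell in hearts were 0.89 (adjusted p = 0.184) for Tcf21 and 0.53 (adjusted p = 0.185) for Vim, and both passed with scaling by library size alone (1.31 and 0.95). From 4 to 14 weeks 0 of 9 passed (background 0.692%), with 1 at an unadjusted p under 0.05 and 1 by DESeq2. From 14 weeks to 1.5 years 1 of 9 passed (background 2.71%): the change of Thy1 in fibroblasts less that in hearts was -1.50 (SE 0.35, adjusted p = 0.0201), which was lost without fibroblast replicate 4 or 6 at 14 weeks (-1.59 and -1.41) and without replicate 5 at 1.5 years (-1.07, adjusted p = 0.138). From day 1 to 1.5 years 3 of 9 passed (background 13.6%), with differences of -2.02 (SE 0.34, adjusted p = 0.00029) for Thy1, 0.95 (SE 0.24, adjusted p = 0.0114) for Vim and 1.74 (SE 0.31, adjusted p = 0.000608) for Pi16. The Vim value was lost with median-of-ratios size factors (0.71, adjusted p = 0.0676), with a length offset (0.72, adjusted p = 0.0694), without fibroblast replicate 4 at 1.5 years (0.78) and without heart replicate 1 at 1.5 years (0.72).

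**Figure D4:**
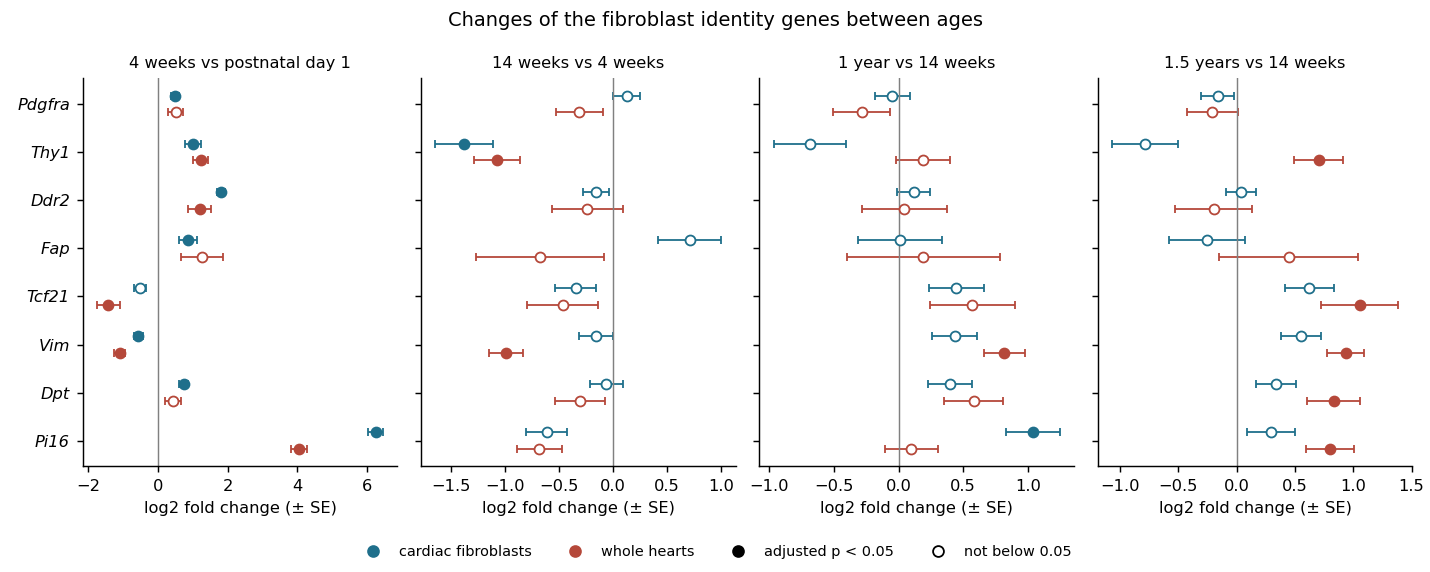
Log2 change of the 8 well-detected genes in 4 comparisons of ages, with SE bars, in cardiac fibroblasts (blue) and whole hearts (red), filled where the adjusted p was under 0.05. Pi16 stands apart from day 1 to 4 weeks at 6.24 in fibroblasts and 4.04 in hearts, and from 14 weeks to 1.5 years Thy1 lies below 0 in fibroblasts and above 0 in hearts.

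Divided by exonic length, which allows genes to be set against each other, the mean fibroblast level over the 12 samples was 878 CPM per kilobase for Dpt, 678 for Vim, 255 for Pi16, 112 for Pdgfra, 97.3 for Tcf21, 52.9 for Ddr2, 31.2 for Thy1 and 5.72 for Fap. Of the 21765 genes with a length, 28 were higher than Dpt, 39 higher than Vim and 5682 higher than Fap. This order depended on age: at day 1 Vim was above Dpt (842 and 543 CPM per kilobase), and Pi16, at 4.69, was below all but Fap. Tcf21 was above Pdgfra at day 1 (125 and 84.3) and below it at 14 weeks (68.2 and 129). Hearts over the 15 samples had 101 CPM per kilobase for Vim, 65.97 for Dpt, 14.8 for Pi16, 6.28 for Tcf21, 5.44 for Thy1, 3.79 for Pdgfra, 3.01 for Ddr2 and 0.667 for Fap. There Dpt was above Vim at 14 weeks (51.3 and 46.3) and, by little, at 1.5 years (91.3 and 88.6). These orders are of group means and were not tested.

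Over the 12 fibroblast samples some members followed each other. The Pearson correlation of log2 levels was 0.92 between Pdgfra and Ddr2, 0.91 between Dpt and Pi16, 0.63 between Tcf21 and Vim, and -0.70 between Pdgfra and Tcf21. In the 15 hearts Tcf21 and Vim gave 0.85. These samples share 5 ages and their depth, so the values are descriptions with no test. Among all genes, those most like Pi16 in fibroblasts were Rgmb (0.999) and Ddr2 (0.994), and those most like Ddr2 were Bdh2 (0.996) and Rgmb (0.996). Rgmb, a membrane-bound BMP co-receptor, was therefore near both. Pi16 and Ddr2 were both far lower at day 1 than later, and no correlation was computed without the day 1 samples. From 4 weeks on, the means in order of age were 2256, 1475, 3027 and 1812 CPM for Pi16. Those of Ddr2 were 622, 558, 605 and 574 CPM. The nearest to Pdgfra was Tgfbr3 (0.97), to Thy1 the elastin gene Eln (0.92), to Tcf21 the cardiac factor Gata4 (0.94), to Vim the ribosomal scaffold gene Rack1 (0.95), to Dpt the calcium-binding S100a6 (0.98) and to Fap Fam149a (0.96). In hearts the nearest to Pi16 by name were Gm43672 (0.98) and Clec3b (0.98), to Vim Csrp2 (0.97), to Tcf21 the growth factor gene Mdk (0.93) and to Pdgfra Stard8 (0.78).

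Other genes known from fibroblasts give the setting. These lists were chosen with earlier results of these data known, so their counts beside the background are descriptions and no independent support. Of 20 further fibroblast genes, mostly of the matrix, 14 were higher and 2 lower at 4 weeks than at day 1 in fibroblasts (background 9.28% and 6.2%), with a median log2 change of 1.51, and 14 were higher and 1 lower in hearts (background 12.1% and 6.1%). Gelsolin (Gsn), which severs actin filaments, went from 2735 to 34996 CPM in fibroblasts (log2 change 3.68, adjusted p = 4.35e-08), and decorin (Dcn), a proteoglycan of collagen fibrils, from 2418 to 6897 CPM (log2 change 1.51, adjusted p = 9.78e-06). The fibrillar collagen gene Col1a1 was at 21025 CPM at day 1, 11716 at 4 weeks and 3087 at 1.5 years (log2 change -2.77, adjusted p = 8.25e-06 between day 1 and 1.5 years). Col3a1, the gene of the other main fibrillar collagen, was at 24106 and 4260.4 CPM at those 2 ages (log2 change -2.50, adjusted p = 3.46e-05). From 14 weeks to 1.5 years 1 of the 20 passed in fibroblasts, higher (background 2.72% in either direction), and 10 passed in hearts, all higher (background 4.91%). Of 10 genes that mark the Pi16-positive and Col15a1-positive fibroblasts found across organs (Cd34 and Ly6a are in both lists), all 10 rose from day 1 to 4 weeks in fibroblasts (background 9.28%, median log2 change 2.21), and 6 rose and 1 fell in hearts (background 12.1% and 6.1%). In that list the basement membrane collagen gene Col15a1 went from 2891 to 6498 CPM (log2 change 1.17, adjusted p = 0.000134) and the cell surface gene Cd34 from 615 to 1946 CPM (log2 change 1.66, adjusted p = 4.38e-06) in fibroblasts. Of the 10, 6 passed the interaction of that step, with the larger change in fibroblasts (background 7.14% in either direction). The endothelial sum in fibroblasts was 486 to 737 CPM at day 1 and 650 to 2164 CPM at 4 weeks. The part of other cells in the rises of these lists was not tested.

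Markers of activated fibroblasts split. Of 8, 3 were higher and 5 lower in fibroblasts at 4 weeks than at day 1 (background 9.28% and 6.2%), and 1 was higher and 4 lower in hearts (background 12.1% and 6.1%). Fibronectin (Fn1) went from 7486 to 1913 CPM (log2 change -1.97, adjusted p = 8.18e-05) and periostin (Postn) from 8189 to 1042 CPM (log2 change -2.97, adjusted p = 2.96e-05), while Cilp, the gene of a cartilage matrix protein, went from 15.1 to 591 CPM (log2 change 5.29, adjusted p = 1.20e-07). The PDGF ligand genes and the receptor gene Pdgfrb were mostly not higher in sorted fibroblasts than in whole hearts. Of Pdgfa, Pdgfb, Pdgfc, Pdgfd and Pdgfrb, 1 was higher in fibroblasts over the mean of the ages and 3 were lower. The higher one was Pdgfrb (log2 ratio 2.17, edgeR adjusted p = 5.27e-16). Of all genes 27.7% were higher and 56.8% differed in either direction. Among 15 relatives of the members by family, 4 were higher and 5 lower at 4 weeks than at day 1 in fibroblasts (background 9.28% and 6.2%). The CAP-family gene Crispld2 went from 88.96 to 866 CPM (log2 change 3.28, adjusted p = 8.07e-06), and Tcf12, an E-protein of the kind that pairs with Tcf21, was at 234 and 147 CPM (log2 change -0.67, adjusted p = 0.00526). S100a6, a relative of S100a4 that was well counted, went from 81.7 to 246 CPM (log2 change 1.59, adjusted p = 5.11e-05).

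Early stress genes and cell cycle genes moved at the same step as the members. The 9 early stress genes summed to 11324 to 15763 CPM at day 1, 25958 to 28476 CPM at 4 weeks and 37246 to 39493 CPM at 1.5 years in fibroblasts, and 8 of 9 were higher at 4 weeks than at day 1 (background 9.28%). In hearts the sum was 132 to 168 CPM at day 1 and 163 to 248 CPM at 4 weeks. The proliferation gene Mki67 was at 205 CPM at day 1, 47.8 CPM at 4 weeks and 4.09 CPM at 1.5 years in fibroblasts, and 2 of 3 proliferation genes were lower at 4 weeks than at day 1 (background 6.2%). The part of either in the changes of the 8 genes after day 1 was not tested.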

How the data were processed

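Raw read counts per gene were deposited by the authors in 2 tables, 12 samples of PDGFRα-sorted cardiac fibroblasts and 15 of whole hearts. Per the labels, RNA was extracted with a column kit and single-end reads of 65 bases were aligned with STAR 2.5.3a to mm10, which also counted them. The annotation and the strand setting are not given in the sources used here. Counts were tested with edgeR 4.0.16 (TMM scaling, filterByExpr, quasi-likelihood F test, Benjamini-Hochberg adjustment over all genes), with 1 fit per tissue and 1 of all 27 samples for ratios and interactions. A gene passed at an adjusted p under 0.05. The SE is the log2 change divided by the square root of F. With 2 or 3 samples per group the spread was pooled over groups, and the biological coefficient of variation was 87.9% in fibroblasts and 71.8% in hearts. DESeq2 1.42.0 and other scalings, filters and sample sets were alternatives. Exonic lengths came from GENCODE M21 and were found for 95.2% of symbols. Likeness was Pearson's r of log2 CPM (prior count 2, genes of at least 1 CPM). All 9 members are named, of other lists up to the 4 most abundant genes, and of the 2 genes most like each member 1 or both. The members and lists were chosen with earlier results of these data known. Identical counts were found in 0 of 24 within-group sample pairs. The study's text gives 3 fibroblast sets per age, and the labels give 2 from 14 weeks on. The code was tested on simulated data.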

Additional observations from a re-analysis of the deposited data

Results flagged for a closer look

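In 5 cases the change with age of a member differed between cardiac fibroblasts and whole hearts (edgeR interaction, adjusted p over all genes), as the log2 change in fibroblasts less that in hearts. For Pi16 this was 2.20 from postnatal day 1 to 4 weeks (adjusted p = 4.15e-05) and 1.74 between day 1 and 1.5 years (adjusted p = 0.000608). For Thy1 it was -1.50 from 14 weeks to 1.5 years (adjusted p = 0.0201) and -2.02 between day 1 and 1.5 years (adjusted p = 0.00029). For Vim it was 0.95 between day 1 and 1.5 years (adjusted p = 0.0114). The comparisons with postnatal day 1 share those samples. No group had 4 or more samples, so no single sample could be examined as far from the others of its group.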

How the results depend on the processing

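Of 85 gene results that passed, 0 turned direction in 2489 recomputations and 2397 stayed past the threshold, while the 92 others belonged to 19 results. Many recomputations left out a sample outside the comparison, which touches a result only through the shared spread, scaling and adjustment. The totals are therefore no measure of how firm the changes with age are. The 85 include the ratios of fibroblasts to hearts at each age and over the mean of the ages, those of Pdgfra among them. Of these ratios only that of Thy1 at 1.5 years lost its call. All other results that lost a call were changes with age or differences of such changes between the tissues. Among values that had not passed, Dpt from postnatal day 1 to 4 weeks in hearts was -0.0746 with library size only, and Pi16 from 14 weeks to 1.5 years in fibroblasts ranged from -0.00924 to 0.55 as single samples were left out. Counts of the 9 genes moved as follows. With DESeq2, 2 passed in fibroblasts from 4 to 14 weeks, 2 from 14 weeks to 1.5 years, and 1 in the interaction from 4 to 14 weeks. With library size only, 0 passed in fibroblasts from 14 weeks to 1 year, and the interaction had 6 over all ages, 3 from postnatal day 1 to 4 weeks and 1 from 4 to 14 weeks. With only the 2 ages compared, 4 passed in fibroblasts from 14 weeks to 1 year and 3 in hearts from 14 weeks to 1.5 years, where a length offset left 2. With single samples left out, the counts were 0 to 1 in fibroblasts for 4 to 14 weeks, for 14 weeks to 1 year and for 14 weeks to 1.5 years, 1 to 3, 0 to 1 and 1 to 5 in hearts for the same steps, and 0 to 1 in the interaction from 14 weeks to 1.5 years.

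Deviations from the group means of same-numbered samples correlated over 0.1 in 1 of 30 heart pairs and 2 of 7 fibroblast pairs, and in 0 of 6 pairs of a fibroblast sample and a heart at postnatal day 1 and 4 weeks. Those 2 fibroblast pairs, of 1 year with 1.5 years, repeat the same value (0.127), because the deviations of 2 samples mirror each other. With 2 or 3 samples per group these correlations cannot show whether the replicate numbers pair the samples. A replicate block left 0 genes past the threshold from 14 weeks to 1 year in fibroblasts and 0 in hearts, and 4 of 41 results lost their call: Fap from postnatal day 1 to 4 weeks (0.84, adjusted p = 0.0992) and Pi16 from 14 weeks to 1 year (1.45, adjusted p = 0.0728) in fibroblasts, and Vim from 14 weeks to 1 year (0.82, adjusted p = 0.0604) and Thy1 from 14 weeks to 1.5 years (0.70, adjusted p = 0.0588) in hearts. The cause of these changes was not tested. Over all genes, the step from 14 weeks to 1 year in fibroblasts had 334 calls, 1010 with DESeq2, 2004 with only the 2 ages and 0 with the block.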
